A study of Mus musculus with 8 samples.

Results

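The genes described here encode the trains and motors of intraflagellar transport (IFT), the traffic that builds and maintains cilia. The set held 32 of the 31053 gene identifiers in the count files, chosen by symbol from the known subunits of the complexes. The rule used no measured value, although the set was proposed with earlier results of these data known. It comprised 6 IFT-A genes, 11 genes of the IFT-B1 core, 6 genes of the IFT-B2 periphery, 4 kinesin-2 genes and 5 dynein-2 genes. All 32 symbols matched an identifier, and all 32 passed the filter on low counts.

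Cilia depend on proteins made in the cell body, and IFT trains carry tubulin, receptors and other cargo along the axoneme. IFT-B trains bind kinesin-2, which moves them from the base of the cilium to its tip, while dynein-2 together with IFT-A returns them to the base. The BBSome, a coat complex that includes Bbs8, rides on these trains and takes membrane proteins out of the cilium. RPE cells carry a primary cilium during development and lose most of them as the epithelium matures.

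The data were QuantSeq 3′ mRNA libraries, in which reads start near the 3′ end of polyadenylated transcripts, from eyecups of mice at postnatal day 11 (P11) of the strain given as C57/Bl6. The 2 groups were 4 libraries from wild-type mice (Bbs8+/+) and 4 from mice that lacked Bbs8 throughout the body (Bbs8-/-), and no animal was treated. The wild-type mice were littermates according to the methods. The labels and the methods on RNA isolation name eyecups, whereas the paper's results call the sequenced samples RPE specimens. From the eyecups, cornea, lens, retina and optic nerve had been removed. By that account the tissue was RPE with the choroid and sclera behind it and not purified RPE. In such bulk tissue fewer cells of a type and less RNA per cell cannot be told apart. The comparison addresses whether transcripts of the IFT machinery differ when a subunit of its BBSome cargo adaptor is missing.

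Total gene counts were 2159295 to 2884983 in Bbs8+/+ and 1636725 to 2179761 in Bbs8-/- libraries, and 3 counts corresponded to 1.05 to 1.82 CPM, the counts scaled to a common library size after TMM normalization. Ttc8, the symbol of Bbs8, stood at 14.7, 19.7, 18.2 and 21.7 CPM in Bbs8+/+ replicates 1 to 4 and at 9.72, 3.66, 2.3 and 4.21 CPM in Bbs8-/- replicates 1 to 4. The genotypes did not overlap, with replicate 1 the highest of the Bbs8-/- libraries, and Ttc8 fell by 1.95 on the log2 scale (SE 0.319, FDR 2.75e-06). Summed levels of 12 RPE marker genes were 17980 to 19080 CPM in Bbs8+/+ and 19390 to 19770 CPM in Bbs8-/- libraries, without overlap. The sum was mostly Ttr, a secreted carrier protein (11000 ± 514 CPM in wild-type, 11700 ± 61.7 CPM in knockout libraries, SD over 4 libraries each). All 12 markers were detected, of which Otx2 was called higher and Mitf lower, and Rpe65 had a log2 fold change of -0.13 (FDR 0.0842).

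No IFT gene was called different between the genotypes at FDR 0.05 by the edgeR quasi-likelihood test, 0 higher and 0 lower of 32, where 1.1% of the 13813 tested genes were called higher and 1.14% lower. At an unadjusted p under 0.05, 3 members were higher and 1 was lower in Bbs8-/-, against 6.38% and 6.6% of tested genes. These 4 made up 12.5% of the members, beside 13% of all tested genes in either direction, of which 2.24% passed FDR 0.05. DESeq2 likewise called 0 members and placed 2 below an unadjusted p of 0.05, beside 10.2% of all tested genes, and the edgeR likelihood ratio test called 0 with 4 below it, beside 13.3%. The smallest adjusted p of a member was 0.319 by the quasi-likelihood test, 0.437 by DESeq2 and 0.294 by the likelihood ratio test.

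The median log2 fold change of the members was 0.08, compared with -0.0041 for all tested genes, whose quartiles were -0.20 and 0.18. Without Bbs8-/- replicate 1 the median of the members was 0.049. Of the 32 members, 21 were higher and 11 lower in Bbs8-/-, by any amount, so that 65.6% were on the higher side beside 49.5% of all tested genes. The median size of the difference, disregarding sign, was 0.12 in the members and 0.19 in all tested genes. For 9 members the 95% interval of the log2 fold change lay within ±0.5, and for 25 it lay within ±1. The intervals of the remaining members reached past ±1, through their width, the position of the estimate or both. A difference of that size was not excluded for them. The median half-width of the interval was 0.458 for members and 0.459 for all tested genes.

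**Figure D1:**
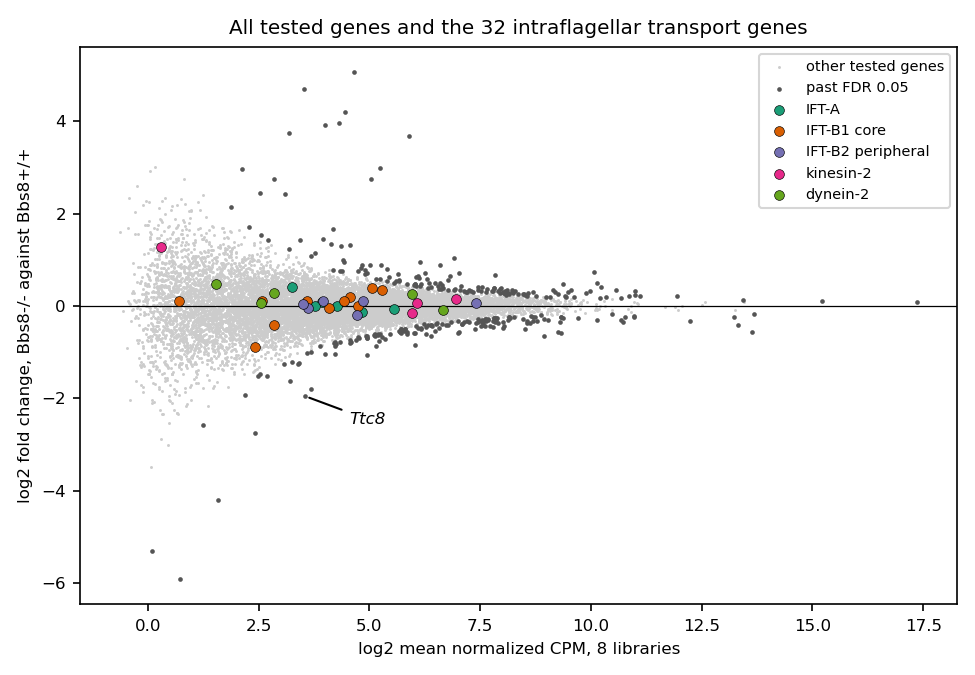
Log2 fold change between Bbs8-/- and Bbs8+/+ (vertical axis) against log2 mean normalized CPM over the 8 libraries (horizontal axis) for all 13813 tested genes. Coloured points are the 32 IFT genes by complex, with log2 fold changes from -0.90 (Ttc30b) to 1.27 (Kif17), and dark grey points are the 309 genes past FDR 0.05, none of them an IFT gene.

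Levels of the members spanned a 139-fold range, from 1.23 CPM for Kif17 to 171 CPM for Ift20, averaged over the 8 libraries. In 3′ sequencing a transcript gives reads from its end only, and CPM values were compared between genes without division by length. Only Ift20, Kif3b and Dync2h1 averaged more than 100 CPM, while 12 members lay between 20 and 100 CPM, 8 between 10 and 20 CPM and 9 under 10 CPM. Together the 32 genes took 0.0972% to 0.108% of the gene counts of a library. They lie on 13 chromosomes, with 6 on chromosome 2 and 0 on X or Y. Counts of the median member varied within a genotype with a chi-square index of 1.72, where 1 is the value for counting noise alone, and 12 members exceeded an index of 2.

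**Figure D2:**
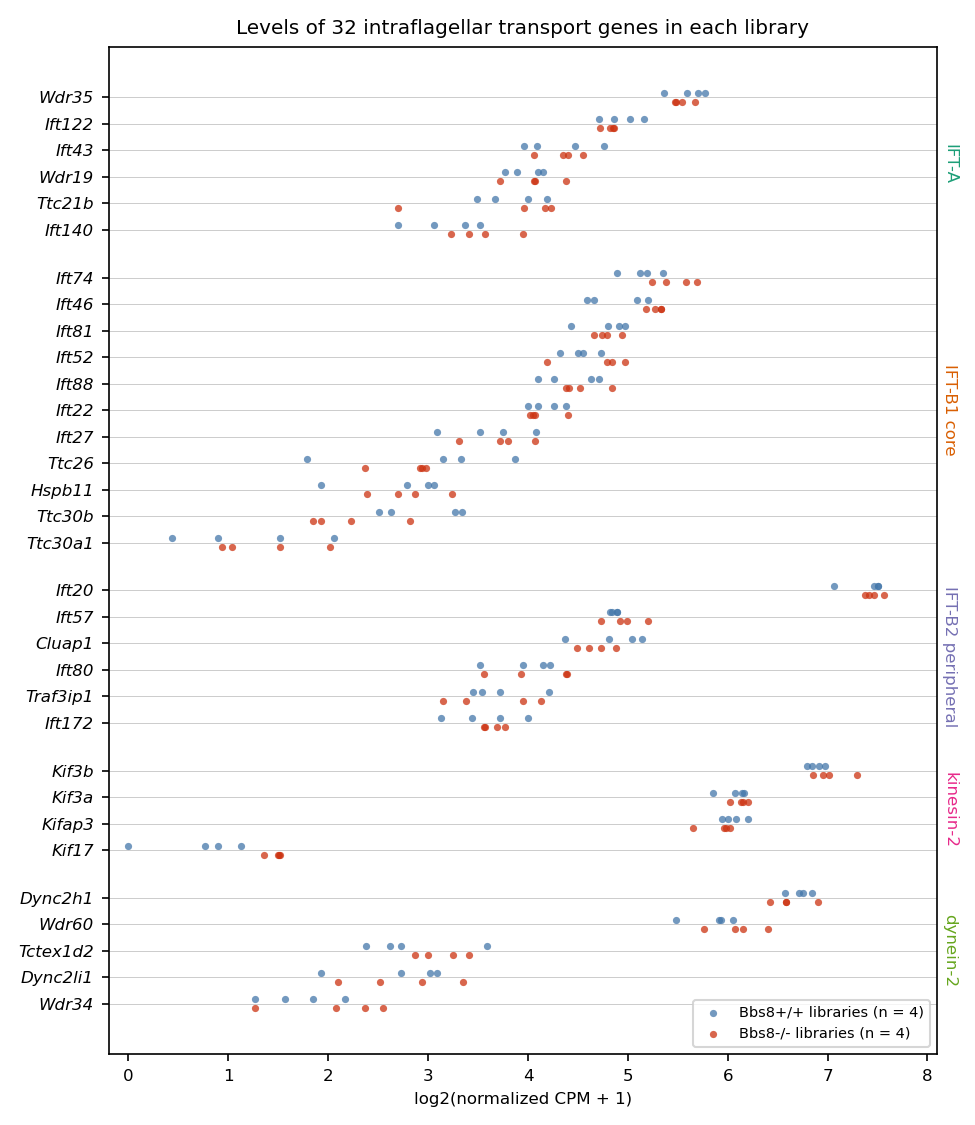
Level of each IFT gene in each library as log2(normalized CPM + 1), with Bbs8+/+ libraries in blue and Bbs8-/- libraries in red (n = 4 each), grouped by complex and ordered by mean level. The genotypes overlap for 31 of the 32 genes, Kif17 at the low end being the exception.

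IFT-A forms the part of the train needed for return from the ciliary tip, and it also carries membrane receptors into the cilium. Its most abundant member was Wdr35, whose protein is also called IFT121. Wdr35 measured 53.5, 47.3, 40.2 and 51 CPM in Bbs8+/+ and 45.6, 43.4, 43.6 and 50 CPM in Bbs8-/-. All 4 Bbs8-/- values lay within the Bbs8+/+ range, with a log2 fold change of -0.075 (SE 0.146, FDR 0.896).

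Ift140, a scaffold subunit of the IFT-A core, was the least abundant of the complex, at 7.34, 5.51, 9.36 and 10.5 CPM in Bbs8+/+ and 10.9, 8.37, 9.65 and 14.5 CPM in Bbs8-/-. Bbs8-/- replicates 1 and 4 were above every Bbs8+/+ library and replicates 2 and 3 were not. The log2 fold change of 0.41 (SE 0.320, 95% interval -0.22 to 1.04, FDR 0.648) was the largest in IFT-A and did not pass the test. An unrelated gene on the opposite strand, Tmem204, overlaps Ift140 away from its 3′ end and had 668 counts over the 8 libraries.

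Log2 fold changes of the other four IFT-A genes lay closer to 0 than that of Ift140. Ift122, a core subunit, gave 25.2 to 34.7 CPM over the 8 libraries and a log2 fold change of -0.14. Wdr19, which encodes the core subunit IFT144, gave 12.2 to 19.8 CPM and 0.10. Ift43, a small peripheral subunit, gave 14.6 to 26.2 CPM and -0.0038. Ttc21b, which encodes the peripheral subunit IFT139, gave 5.51 to 17.8 CPM and 0.0018, and Bbs8-/- replicate 3 held the lowest of these values. FDR was 0.831 to 0.999 for these genes. Summed over the complex, IFT-A reached 133.9 ± 9.30 CPM in wild-type and 132.7 ± 8.47 CPM in knockout libraries (SD over 4 libraries each), a ratio of 0.991, with 3 members higher and 3 lower.

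The IFT-B1 core is the backbone of the train that moves toward the tip, and it held 3 of the 4 members with an unadjusted p under 0.05. Ift46 (ENSMUSG00000002031, chr9:44767908-44793447 on the plus strand of mm10) encodes a core subunit known for the import of axonemal dynein arms. It measured 33.2, 35.8, 24.3 and 23.1 CPM in Bbs8+/+ and 37.7, 39.2, 35.4 and 39.3 CPM in Bbs8-/-. Bbs8+/+ replicates 3 and 4 were low, and the genotypes overlapped through Bbs8+/+ replicate 2 and Bbs8-/- replicate 3. Its log2 fold change was 0.38 (SE 0.174, 95% interval 0.037 to 0.72, FDR 0.319).

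Ift74 (ENSMUSG00000028576, chr4:94614491-94693229, plus strand) was the most abundant IFT-B1 gene. With Ift81 its protein forms the module that binds tubulin. Levels were 33.7, 39.8, 35.6 and 28.7 CPM in Bbs8+/+ and 40.7, 50.7, 46.9 and 36.9 CPM in Bbs8-/-. In Bbs8-/- replicates 1 to 3 lay above every Bbs8+/+ library, and replicate 4 lay below Bbs8+/+ replicate 2. This gave a log2 fold change of 0.35 (SE 0.161, 95% interval 0.034 to 0.67, FDR 0.319). Its partner Ift81 gave 20.6 to 30.4 CPM and a log2 fold change of -0.0037 (SE 0.193, FDR 0.996). Whether the pair differed from each other in response was not tested.

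Ttc30a1 and Ttc30b encode IFT70, a subunit wrapped around IFT52. They are near-identical genes of a cluster on chromosome 2, at chr2:75978247-75981967 and chr2:75935849-75938585, both on the minus strand, with a further copy, Ttc30a2, between them. Reads that fit more than 1 copy are lost from counts of unique alignments, so the level of each copy is uncertain. Ttc30b measured 5.18, 8.66, 4.68 and 9.09 CPM in Bbs8+/+ and 6.07, 2.61, 3.67 and 2.81 CPM in Bbs8-/-. Bbs8-/- replicates 2 to 4 were below every Bbs8+/+ library, while replicate 1 was above Bbs8+/+ replicates 1 and 3. Its log2 fold change was -0.90 (SE 0.448, 95% interval -1.79 to -0.022, FDR 0.371).

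Ttc30a1 was the lowest IFT-B1 gene, at 0.863, 3.15, 1.87 and 0.35 CPM in Bbs8+/+ and 3.04, 1.05, 0.919 and 1.87 CPM in Bbs8-/-. These values lie near the level of 3 counts, and the summed counts were 15 in Bbs8+/+ and 13 in Bbs8-/-. Scaled for depth, their ratio was 1.08, with an exact 95% interval of 0.475 to 2.44 for counting error only. When counts of Ttc30a1, Ttc30b and Ttc30a2 were added before the fit, the sums were 16, 30, 14 and 27 in Bbs8+/+ and 15, 9, 12 and 12 in Bbs8-/-. The log2 fold change of that sum was -0.50 (SE 0.366, 95% interval -1.23 to 0.22, FDR 0.609).

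The remaining IFT-B1 genes had an FDR of 0.740 to 0.970. Ift52 and Ift88, 2 scaffold subunits whose loss prevents cilia from forming, gave log2 fold changes of 0.20 (17.3 to 30.4 CPM) and 0.10 (16.1 to 27.6 CPM). Ift22, a small GTPase-like subunit, gave -0.043 (15 to 20.1 CPM). Ift27, a small GTPase, and Hspb11, which encodes its partner IFT25, form the dimer through which the BBSome leaves the cilium. Ift27 gave 0.11 (SE 0.288, 95% interval -0.46 to 0.68) at 7.48 to 15.9 CPM, and Hspb11 gave 0.12 (SE 0.418, 95% interval -0.71 to 0.95) at 2.8 to 8.42 CPM. Ttc26, which encodes IFT56, gave -0.40 (SE 0.388, 95% interval -1.17 to 0.36), and its widest values, 2.45 and 13.6 CPM, were both from Bbs8+/+ libraries. The Ttc26 value was -0.062 without Bbs8+/+ replicate 3 and -0.72 without replicate 4.

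Summed IFT-B1 levels were 191.2, 194.5, 192.3 and 160.5 CPM in Bbs8+/+ and 212, 191.9, 200.3 and 207.7 CPM in Bbs8-/-. Bbs8+/+ replicate 4 stood below all others, and the genotypes overlapped. On average the core reached 184.6 ± 16.1 CPM in wild-type and 203 ± 8.81 CPM in knockout libraries (SD over 4 libraries each), a ratio of 1.10, which was 1.05 without Bbs8+/+ replicate 4. Of the 11 genes, 7 were higher and 4 lower, with a median log2 fold change of 0.11.

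**Figure D3:**
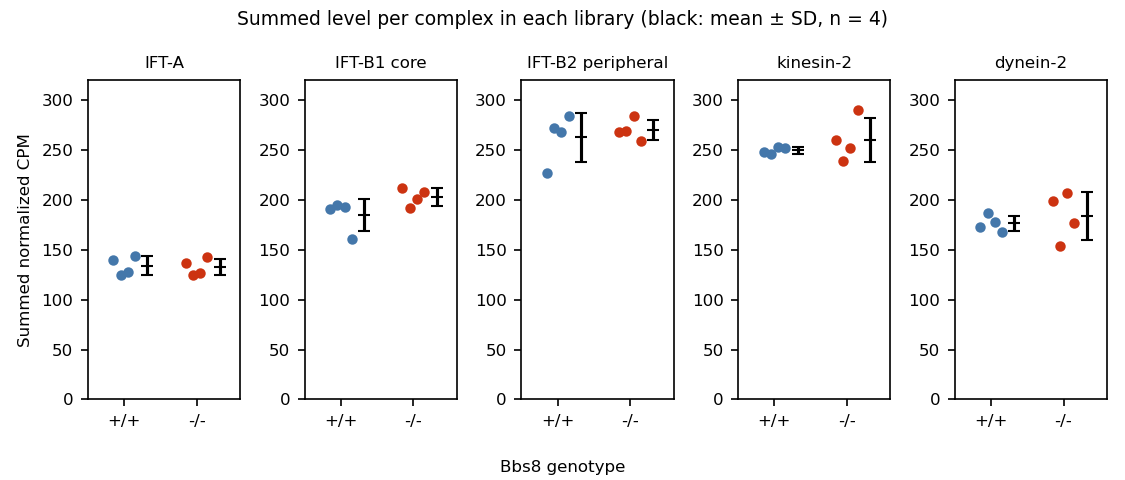
Summed normalized CPM of the members of each complex in each library, by Bbs8 genotype (n = 4 each), with black marks for the mean ± SD. Ratios of Bbs8-/- to Bbs8+/+ means lie between 0.991 for IFT-A and 1.10 for the IFT-B1 core, and the libraries of the 2 genotypes overlap in all 5 complexes.

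IFT-B2 proteins sit on the outside of the train and include the subunits that meet kinesin-2. Ift20, which also works at the Golgi in sorting membrane proteins for the cilium, was the most abundant IFT gene. It measured 133, 180, 176 and 181 CPM in Bbs8+/+ and 165, 176, 188 and 170 CPM in Bbs8-/-. Bbs8+/+ replicate 1 was the lowest of the 8 libraries, and the others lay between 165 and 188 CPM. The difference on the log2 scale was 0.061 (SE 0.0857, 95% interval -0.11 to 0.23, FDR 0.841), and it was -0.03 without Bbs8+/+ replicate 1.

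Ift172, whose large protein is known for the turnaround at the ciliary tip, was the lowest IFT-B2 gene. It stood at 7.77, 15, 9.82 and 12.2 CPM in Bbs8+/+ and 10.9, 12.6, 11.9 and 10.8 CPM in Bbs8-/-. The Bbs8-/- libraries all fell inside the Bbs8+/+ range, and the log2 fold change was 0.035 (SE 0.290, FDR 0.979). Ift57 gave 0.11 at 25.6 to 35.8 CPM, with the smallest scatter of the IFT-B2 genes in Bbs8+/+ (SD 0.778 CPM, n = 4). Ift80, mutated in a human skeletal ciliopathy, gave 0.12 at 10.5 to 20 CPM. Cluap1 and Traf3ip1, which encode the IFT38 and IFT54 subunits, gave -0.20 (19.7 to 34.3 CPM) and -0.043 (7.9 to 17.5 CPM). FDR for these genes was 0.746 to 0.974. The complex summed to 262.6 ± 24.7 CPM in wild-type and 269.9 ± 10.4 CPM in knockout libraries (SD over 4 libraries each), a ratio of 1.03, with 4 genes higher and 2 lower.

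Heterotrimeric kinesin-2 carries IFT trains outward and consists of the motor subunits Kif3a and Kif3b with the adaptor Kifap3. Kif3b measured 114, 125, 110 and 120 CPM in Bbs8+/+ and 128, 115, 123 and 156 CPM in Bbs8-/-. Bbs8-/- replicate 4 was the highest, and replicates 2 and 3 lay within the Bbs8+/+ range. Its log2 fold change was 0.15 (SE 0.0961, 95% interval -0.037 to 0.34, FDR 0.530). Kif3a, at 56.7 to 72.7 CPM, gave 0.065 (SE 0.124, FDR 0.895). Kifap3, at 49.2 to 72.5 CPM, gave -0.15 (SE 0.129, FDR 0.703). The intervals of all 3 subunits lay within ±0.5, and these genes were among the more tightly measured members.

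Kif17 (ENSMUSG00000028758, chr4:138250435-138301967, plus strand) encodes a second, homodimeric kinesin-2 known from cilia of sensory neurons and photoreceptors. It was the lowest of all members, at 0.863, 1.18, 0 and 0.699 CPM in Bbs8+/+ and 1.82, 1.57, 1.84 and 1.87 CPM in Bbs8-/-. It passed the filter on low counts through its Bbs8-/- values, since 1 of the 4 Bbs8+/+ libraries reached 1 CPM. Every Bbs8-/- library was above every Bbs8+/+ library, which made Kif17 the only member whose genotypes did not overlap, a description that this selection favours, 3.12% of the members beside 3.62% of tested genes that were higher and 3.76% that were lower without overlap, 7.38% in all. The counts behind these values were 2, 3, 0 and 2 in Bbs8+/+ and 3, 3, 4 and 4 in Bbs8-/-, at or close to 3 counts a library. Summed, they were 7 and 14, and the depth-scaled ratio was 2.5 with an exact 95% interval of 0.945 to 7.33 for counting error only (FDR 0.591 by edgeR). A gene on the same strand, Sh2d5, overlaps Kif17 away from its 3′ end and had 50 counts over the 8 libraries. The 4 kinesin-2 genes summed to 249.6 ± 3.29 CPM in wild-type and 260.3 ± 22 CPM in knockout libraries (SD over 4 libraries each), a ratio of 1.04.

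Dynein-2 is the motor that brings trains back to the base. Dync2h1, its heavy chain, measured 94.1, 107, 104 and 114 CPM in Bbs8+/+ and 94.8, 84.7, 119 and 94.9 CPM in Bbs8-/-. Bbs8-/- replicate 2 was the lowest and replicate 3 the highest of the 8 libraries. The log2 fold change was -0.091 (SE 0.105, 95% interval -0.30 to 0.12, FDR 0.798).

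Wdr60 (ENSMUSG00000042050, chr12:116206262-116263022, minus strand) encodes an intermediate chain of dynein-2 and was the fourth member with an unadjusted p under 0.05. It measured 65.2, 59.1, 59.9 and 43.7 CPM in Bbs8+/+ and 83.8, 53.3, 66.1 and 70.2 CPM in Bbs8-/-. Bbs8+/+ replicate 4 was the lowest library, Bbs8-/- replicate 2 the next lowest, and Bbs8-/- replicates 1, 3 and 4 were above all Bbs8+/+ libraries. Its log2 fold change was 0.27 (SE 0.133, 95% interval 0.0024 to 0.53, FDR 0.381).

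Wdr34, the other intermediate chain, was the lowest dynein-2 gene, at 2.59, 1.97, 1.4 and 3.5 CPM in Bbs8+/+ and 4.86, 4.18, 3.22 and 1.4 CPM in Bbs8-/-. Bbs8-/- replicates 1 and 2 were highest, and replicate 4 was level with the lowest Bbs8+/+ library. The log2 fold change of 0.47 had an interval of -0.75 to 1.71 (FDR 0.822). Dync2li1, the light intermediate chain, gave 0.072 at 2.8 to 9.19 CPM, and Tctex1d2, a light chain, gave 0.27 at 4.2 to 11 CPM, with FDR 0.972 and 0.834. The complex summed to 176.3 ± 7.86 CPM in wild-type and 183.8 ± 24 CPM in knockout libraries (SD over 4 libraries each), a ratio of 1.04, with 4 genes higher and 1 lower.

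**Figure D4:**
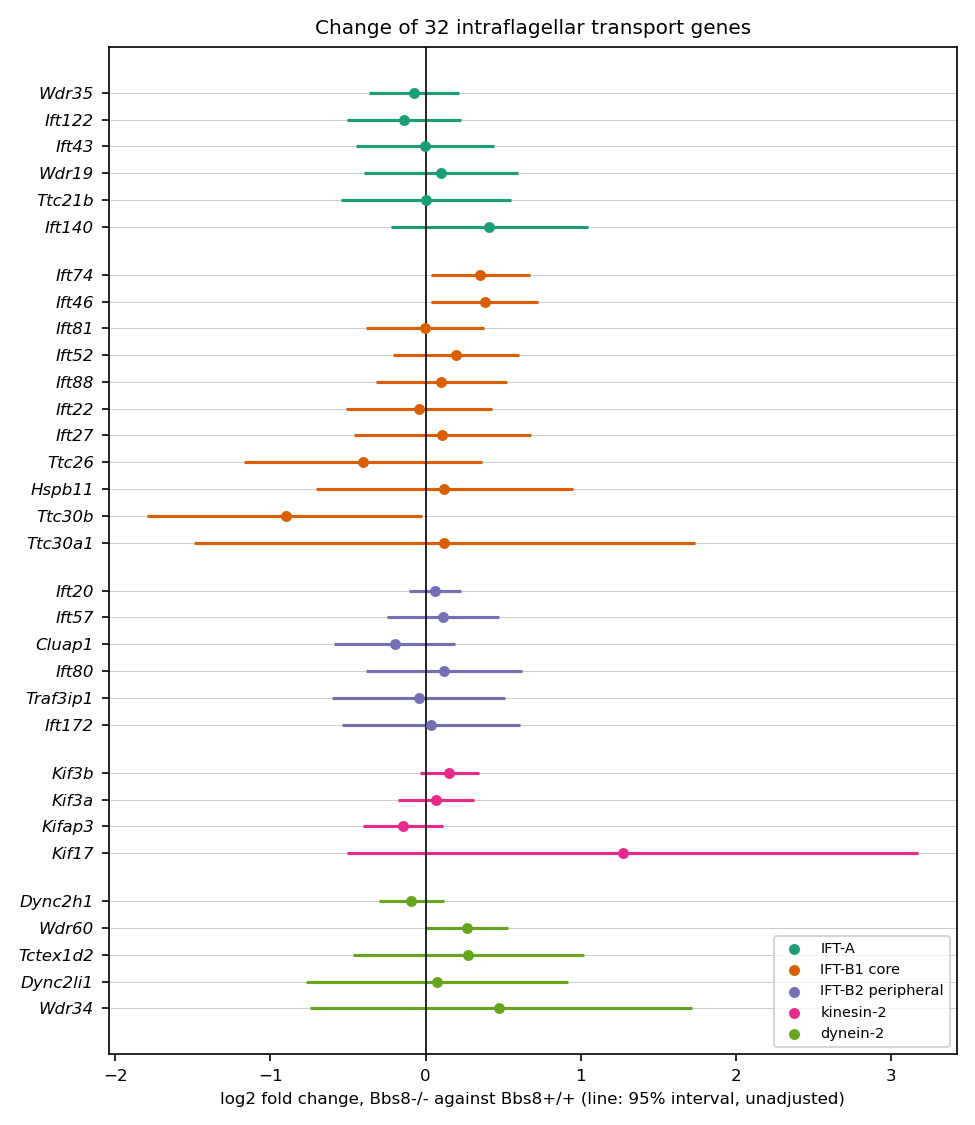
Log2 fold change of each IFT gene between Bbs8-/- and Bbs8+/+ with its 95% interval, not adjusted for multiple tests, coloured by complex (n = 4 per genotype). The intervals of 4 genes leave out 0, Ift46, Ift74 and Wdr60 on the higher side and Ttc30b on the lower side, and the widest belong to the sparsely counted Kif17, Ttc30a1 and Wdr34.

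The number of members with an unadjusted p under 0.05 in the edgeR fit, 4 with all libraries, was 0 without Bbs8+/+ replicate 4, 2 without Bbs8-/- replicate 2 and 1 without either replicate 3 or replicate 4 of Bbs8-/-. The share of all tested genes below that p in these fits was 11.5%, 11.8%, 11.9% and 11%. Without Bbs8+/+ replicate 1 the number was 4, beside 12.1% of tested genes. It was 3 without Bbs8+/+ replicate 2, Bbs8+/+ replicate 3 or Bbs8-/- replicate 1, beside 11.5%, 13.5% and 11.5%. The level of all 32 members summed was 978.7, 1023, 1018 and 1008 CPM in Bbs8+/+ and 1075, 977.9, 1069 and 1076 CPM in Bbs8-/-. Replicates 1, 3 and 4 of Bbs8-/- were above the Bbs8+/+ range and replicate 2 was below it, so that the genotypes overlapped. The means were 1007 ± 19.9 CPM and 1050 ± 47.9 CPM (SD over 4 libraries each), a ratio of 1.04.

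Genes that work with the trains were measured in the same fit. Of 35 such genes (further motor subunits, kinases, GTPases and adaptors, CPLANE effectors, distal appendage proteins of the mother centriole and ciliary transcription factors), 29 were tested. The edgeR test called 0 of them, and their median log2 fold change was -0.036. At an unadjusted p under 0.05, 1 was higher and 1 lower, beside 6.38% and 6.6% of all tested genes. The largest differences were those of Cdk20, a kinase of ciliary Hedgehog signalling, and Fbf1, a distal appendage protein at the gate where trains enter. Cdk20 measured 3.45 to 7.34 CPM in Bbs8+/+ and 6.07 to 10.1 CPM in Bbs8-/- (log2 fold change 0.73, SE 0.391, FDR 0.422). Fbf1 measured 8.27 to 21.6 CPM in Bbs8+/+ and 9.41 to 14.7 CPM in Bbs8-/- (log2 fold change -0.53, SE 0.264, FDR 0.372). Dynlt3, a dynein light chain shared with cytoplasmic dynein, was the other partner below an unadjusted p of 0.05 (0.18, SE 0.0749, FDR 0.232). Foxj1, the regulator of motile cilia, had 1 count over the 8 libraries, and Rfx4 and Rsg1 had 0.

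In a list of BBSome subunits and recruitment factors, 9 of 10 genes were tested and the targeted Ttc8 was the 1 gene called. Among the other 8 tested genes the median log2 fold change was -0.14, with 0 calls by edgeR. Of these 8, 2 had an unadjusted p under 0.05, beside 13% of all tested genes. The 2 were Arl6, the GTPase that recruits the BBSome to membranes (-0.81, SE 0.373, FDR 0.319), and Bbs4 (0.48, SE 0.212, FDR 0.290).

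Marker genes of other cell types were read beside these values. Photoreceptors, whose outer segments depend on IFT, were represented by 15 detected markers that summed to 568.3 to 620.3 CPM in Bbs8+/+ and 496.7 to 571.4 CPM in Bbs8-/-, with 1 called higher and 2 called lower. Lens markers summed to 54.74 to 67.75 CPM in Bbs8+/+ and 350.5 to 373.9 CPM in Bbs8-/-, with 7 of 12 called higher, all of them crystallins. Crybb2 and the fibre genes Bfsp1, Bfsp2, Mip and Lim2 were not called (FDR 0.480, 0.102, 0.782, 0.776 and 0.734). Melanocyte markers were at 14000 to 14680 CPM and 11610 to 12180 CPM, with 5 of 8 called lower. Those called were the pigment genes Dct, Pmel, Tyrp1 and Mlana and the receptor gene Ednrb (-0.44, FDR 1.97e-05). Dct and Pmel made up most of the sum, and pigment genes of this kind are also expressed by the RPE. Tyr, Kit and Sox10 gave 0.016, -0.028 and -0.055 (FDR 0.955, 0.974 and 0.878). Fibroblast and matrix markers were at 34250 to 35990 CPM and 26870 to 28040 CPM, with 3 of 7 called lower, the collagen genes Col1a1, Col1a2 and Col3a1. The other four, Dcn, Lum, Fbln1 and Pdgfra, gave 0.087, 0.12, -0.11 and -0.25 (FDR 0.174, 0.631, 0.819 and 0.384). Endothelial markers (704.5 to 730 CPM and 664.1 to 749.6 CPM) and skeletal muscle markers (2470 to 2620 CPM and 2728 to 2877 CPM) had 0 calls by edgeR. In each of these lists 2 genes had an unadjusted p under 0.05, beside 13% of all tested genes. Genes of motile ciliated cells summed to 20.28 to 24.6 CPM and 17.3 to 34.62 CPM, with 4 of 10 tested and Tekt4 and Rsph4a at 0 in all 8 libraries. The part of these tissue differences in the IFT values was not tested.

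A feature that the choice of genes did not use is the sequence around their starts. Ciliary genes are known targets of RFX transcription factors, which bind the X-box, a pair of inverted half-sites. RefSeq promoters on GRCm38.p6, 250 bases before to 50 after the start, were available for 27 of the 32 genes. The half-site GTTGCC, searched on both strands, occurred in 12 of them (44.4%), beside 12.5% of all 32851 promoters and 12.5% of the 13752 promoters of tested genes. These 12 were Ift140, Wdr35, Ift27, Ift88, Ttc26, Ift57, Ift172, Traf3ip1, Kif3a, Kif17, Dync2h1 and Tctex1d2. The variant GTTACC was found in 2 (7.41%), beside 7.21% of all promoters, and a full X-box, which contains such half-sites, in 2 (7.41%), beside 1.53%. The ETS motif CCGGAAG was found in 5 (18.5%), beside 8.86% of all and 16% of tested genes' promoters. Mean GC content was 58.3% in the members and 60.4% in promoters of tested genes. A match describes letters in this window and is not a binding site.

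The following 4 promoters are shown because they hold the full X-box (Ift57 and Kif17) or a half-site in a gene of each motor (Kif3a and Dync2h1). They lie at chr16:49699044-49699343 on the plus strand, chr4:138262001-138262300 on the plus strand, chr11:53567119-53567418 on the plus strand and chr9:7177009-7177308 on the minus strand. Each is written 5′ to 3′ along the gene, and capitals mark the X-box or half-site. The starts are those of RefSeq, and for Ift57, Kif17 and Dync2h1 the other annotation used here has the gene begin farther upstream, so that the Ift57 X-box nearer the start and the whole Kif17 and Dync2h1 windows lie inside those gene models.
Ift57: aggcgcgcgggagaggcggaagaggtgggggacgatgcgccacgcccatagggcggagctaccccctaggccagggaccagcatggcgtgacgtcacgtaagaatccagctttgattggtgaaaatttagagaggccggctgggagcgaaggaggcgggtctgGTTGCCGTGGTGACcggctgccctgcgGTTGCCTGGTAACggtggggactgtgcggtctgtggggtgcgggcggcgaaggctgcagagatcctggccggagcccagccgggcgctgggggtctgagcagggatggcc
Kif17: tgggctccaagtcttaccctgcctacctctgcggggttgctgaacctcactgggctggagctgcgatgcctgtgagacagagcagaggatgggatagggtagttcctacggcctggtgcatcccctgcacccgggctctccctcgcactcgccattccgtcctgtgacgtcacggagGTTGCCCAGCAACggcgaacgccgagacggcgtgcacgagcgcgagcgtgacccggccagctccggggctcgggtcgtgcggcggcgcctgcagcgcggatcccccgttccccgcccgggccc
Kif3a: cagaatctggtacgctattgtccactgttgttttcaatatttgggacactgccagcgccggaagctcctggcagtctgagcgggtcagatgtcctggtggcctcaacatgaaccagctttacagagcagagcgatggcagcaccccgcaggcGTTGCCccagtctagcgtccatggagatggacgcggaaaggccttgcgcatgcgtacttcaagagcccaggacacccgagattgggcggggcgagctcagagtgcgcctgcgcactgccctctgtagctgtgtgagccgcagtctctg
Dync2h1: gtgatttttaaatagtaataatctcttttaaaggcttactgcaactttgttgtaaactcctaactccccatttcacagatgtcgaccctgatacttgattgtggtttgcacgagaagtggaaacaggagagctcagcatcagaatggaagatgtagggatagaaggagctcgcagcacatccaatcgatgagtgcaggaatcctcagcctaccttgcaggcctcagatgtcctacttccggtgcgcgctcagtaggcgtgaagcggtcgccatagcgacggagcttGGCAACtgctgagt

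The Ift57 promoter held 2 X-boxes, which begin 87 and 60 bases before the start, and the Kif17 X-box begins 73 bases before it. The Kif3a half-site begins 98 bases before the start, while that of Dync2h1 is in the complementary orientation, at bases 37 to 42 after the start. Levels of the genes with these promoters ran from Kif17 at 1.23 CPM through Ift57 at 29.2 CPM and Kif3a at 67.5 CPM to Dync2h1 at 102 CPM. None of these genes passed the edgeR test. The factors themselves were present at low levels, with Rfx1 at 12.6 to 21.3 CPM, Rfx2 at 1.21 to 5.75 CPM and Rfx3 at 6.08 to 16.8 CPM over the 8 libraries, and FDR of 0.713, 0.995 and 0.666.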

How the data were processed

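The authors prepared QuantSeq 3′ libraries (single-end reads) from total RNA, of P11 eyecups according to the labels. They trimmed reads with BBDuk, aligned them with STAR to mm10 and deposited raw read counts per gene from htseq-count, for unique alignments. The strand setting is not given in the sources used here, so a gene overlapped on the opposite strand is uncertain. No molecular identifiers were named. Lines for reads outside genes (42.15% to 44.39% of these, ambiguous reads and gene counts together) were left out. Total gene counts were 1636725 to 2884983 per library, and intervals from counts cover counting error only.

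Of 31053 identifiers, 31011 had a GENCODE M21 entry (mm10, 1-based positions). Genotype was tested in edgeR 4.0.16 (quasi-likelihood F test, TMM, two-sided, R 4.3.3) for genes that reached 1 CPM in 4 or more libraries, and FDR is the Benjamini-Hochberg adjusted p over all 13813 tested genes. SE is the size of the log2 fold change divided by the square root of F. The members and all lists were chosen with earlier results of these data known. Values per library are given for Ttc8, for members with FDR under 0.05, an unadjusted p under 0.05 or no overlap, and for the highest and lowest member of each complex. Of the partner lists, called genes and the 2 largest differences are named, and those with an unadjusted p under 0.05, Foxj1 and the Rfx genes were added after their values were seen. In simulated counts with 200 of 13624 genes changed by 1 on the log2 scale, edgeR recovered 143 and made 12 false calls, and DESeq2 1.42.0 recovered 118.

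Alternatives were other size factors and filters, DESeq2, a likelihood ratio test, thinning, removal of Gm42418 and mitochondrial genes, a replicate block, and leaving out each library. Same-numbered replicates did not deviate together (correlations of -0.056 to 0.019 over 6628 genes). Animals are separate biological replicates by the labels, and the methods name the genotypes as littermates, but which replicate numbers shared a litter or day is not given in the sources used here.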

Additional observations from a re-analysis of the deposited data

Results flagged for a closer look

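In 7 of 76 sets of 4 libraries (each member and each summed level per genotype), 1 library lay apart from the other three by more than Dixon's 95% limit, where chance gives about 1 in 20, or 3.8. Bbs8-/- replicate 2 was the library apart in 4 of them, each time on the low side. It gave 4.18 CPM for Ttc26 (6.55 to 6.89 CPM in the others), 49.2 CPM for Kifap3 (61.4 to 63.8 CPM), 1.57 CPM for Kif17 (1.82 to 1.87 CPM) and 977.9 CPM for the sum of all members (1069 to 1076 CPM). The Kif17 value rests on 3 counts beside 3, 4 and 4 in the others. Bbs8-/- replicate 4 stood high for Ift22, at 20.1 CPM against 15.2 to 15.8 CPM. Bbs8+/+ replicate 1 stood low for Ift20, at 133 CPM against 176 to 181 CPM. Bbs8+/+ replicate 4 stood low for the sum of the IFT-B1 core, at 160.5 CPM against 191.2 to 194.5 CPM. The cause of these values was not tested.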

How the results depend on the processing

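Under each alternative run on the members, 0 of them were called by edgeR or DESeq2, and the smallest member FDR was 0.197, for Wdr60 without Bbs8-/- replicate 2. Ift46, Ift74, Wdr60 and Ttc30b kept their direction, with FDR of 0.216 to 0.585, 0.247 to 0.561, 0.197 to 0.733 and 0.279 to 0.595. The median over the members was 0.049 to 0.10 when each library was left out, lowest without Bbs8-/- replicate 1. The number of members below an unadjusted p of 0.05 ranged from 0 (without Bbs8+/+ replicate 4) to 4, and DESeq2 gave no adjusted p for 2 of the members. Ttc30a1, Kif17 and Wdr34 were left untested by filterByExpr. Summing the Ttc30 copies, chosen after seeing the data, gave FDR 0.609 for the sum.

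Of the 32 members, 14 changed sign at least once, none with a reversed value beyond 0.25, and the cause was not tested. Log2 fold changes on the other side of 0 were 4.98e-05 (RLE size factors), 0.00047 (filterByExpr) and 0.00075 (DESeq2) for Ift43, -0.0086 (library totals) and -4.6e-05 (no filter) for Ttc21b, and 0.00074 (filterByExpr) and 0.17 (thinned libraries) for Ift81. Leaving out each library in turn gave -0.12 to 0.19 for Ift43, -0.0339 to 0.21 for Wdr19, -0.16 to 0.28 for Ttc21b, -0.15 to 0.0321 for Ift22, -0.0526 to 0.29 for Ift27, -0.12 to 0.0621 for Ift81, -0.0196 to 0.21 for Ift88, -0.12 to 0.26 for Hspb11, -0.25 to 0.74 for Ttc30a1, -0.03 to 0.10 for Ift20, -0.031 to 0.27 for Ift80, -0.10 to 0.21 for Ift172, -0.23 to 0.17 for Traf3ip1 and -0.24 to 0.28 for Dync2li1. The Ttc8 value was -2.44 to -1.70, and 114 to 172 genes were called higher and 105 to 150 lower.

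With the replicate number as a block, 0 members were called, the median was 0.074, Ttc8 was at -1.97, and 134 genes were called higher and 129 lower. The block put Ift43 at 0.0045, Ttc21b at -0.014 and Ift81 at 0.0013, and it changed no call among the members. Whether same-numbered libraries share more than a number is not given in the sources used here. Depth limited Kif17, Ttc30a1 and Wdr34 most, which had the widest intervals.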

Other observations

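Kif3c, a further kinesin-2 motor subunit that can pair with Kif3b and is known mainly from neurons, was outside the 32 genes and had no overlap between the genotypes. It measured 6.9, 6.3, 8.89 and 5.94 CPM in Bbs8+/+ and 4.25, 4.18, 5.51 and 5.14 CPM in Bbs8-/-, on 106 counts in all. Every Bbs8-/- library was below every Bbs8+/+ library, where 3.76% of tested genes show the same. This gave a log2 fold change of -0.53 (SE 0.415, 95% interval -1.36 to 0.29, FDR 0.644 by edgeR), and it was -0.61 to -0.40 when each library was left out in turn. Tulp3, the adaptor that joins IFT-A to membrane receptors, measured 11.2 to 19.7 CPM in Bbs8+/+ and 7.95 to 13.8 CPM in Bbs8-/- (log2 fold change -0.45, SE 0.270, FDR 0.506). Kif3c and Tulp3 were singled out after their values were seen.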
